A study of Mus musculus with 2 samples.

Results

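The 9 genes described here encode histone acetyltransferases other than the targeted *Kat2a*, and histone deacetylases. They were *Kat5*, *Kat6a*, *Kat7*, *Kat8*, *Crebbp*, *Ep300*, *Hdac1*, *Hdac2* and *Hdac3*, chosen by symbol and not by any measured value, although earlier results of these data were known. Each symbol matched 1 of the 27998 genes in the deposited matrix. The data were 10x Genomics 3′ single-cell transcriptomes of mouse acute myeloid leukemia driven by *MLL-AF9*, with 1 library from a pool of 5 terminal leukemias labelled *Kat2a* WT and 1 library from a pool of 4 labelled *Kat2a* KO. Donor mice of both groups were *Kat2a* Flox/Flox and received pIpC, and they were Mx1-Cre -/- for WT and Mx1-Cre +/- for KO. Mx1-Cre is driven by an interferon-inducible promoter, so pIpC exposes both groups to an interferon response and excises the floxed allele only where Cre is carried. Marrow taken 4 to 6 weeks later was depleted of lineage-positive cells, transduced with an *MLL-AF9* retrovirus and injected into lethally irradiated recipients. Live YFP-positive singlets were sorted, YFP being the reporter of the fusion. The individual leukemias within a pool carry no label, so no difference between the libraries has a replicate check, no test between genotypes was possible, and every interval below is a 95% interval that covers counting error only.

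Histone acetyltransferases transfer acetyl groups to lysines of histone tails, which loosens chromatin and creates docking sites for bromodomain and YEATS proteins. Histone deacetylases remove these groups, usually as the catalytic core of corepressor complexes. In myeloid leukemia both kinds of enzyme are studied as cofactors of fusion oncoproteins and as drug targets, and *Kat2a* is the acetyltransferase whose loss this series was made to study.

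The analysis used the cells in which 500 or more genes were detected, which left 3866 cells with 11669427 UMIs in the WT-labelled library and 3545 cells with 7920256 UMIs in the KO-labelled library. A UMI is a molecular tag standing for 1 captured transcript, and levels are given as CPM, UMIs of a gene per 1000000 UMIs. Depth differed, with medians of 2588.5 and 1884 UMIs per kept cell. *Kat2a* itself stood at 12.2 CPM in the WT-labelled library and 95.8 CPM in the KO-labelled library, opposite to the labels, with a log2 ratio of 2.98 (2.72 to 3.25). The 3′ assay reads the last exon, which the excised allele keeps, so the level does not report excision, and the names "labelled WT" and "labelled KO" are used throughout. All 94 myeloid, stem cell and cell cycle marker genes had UMIs, and the neutrophil genes of the late granule list alone held 10.6% and 9.43% of all UMIs. Lists of other cell types were also higher in the KO-labelled library. The 6 erythroid genes summed to 208 and 538 CPM, the 5 megakaryocyte genes to 26.3 and 172 CPM, the 5 T and NK cell genes to 197 and 319 CPM and the 5 B cell genes to 54.3 and 79.0 CPM, with *Pax5* at 0. Their part in the ratios below was not tested. The libraries had 28 cell barcodes in common, and leaving these cells out moved no log2 ratio of the 9 genes by more than 0.020.

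The data showed lower levels of 3 acetyltransferases in the KO-labelled library, *Ep300*, *Kat6a* and *Crebbp*, while the other 3 acetyltransferases and the 3 deacetylases lay within 1.5-fold between the libraries. Summed over the 6 acetyltransferases the level was 108 CPM in the WT-labelled library and 93.2 CPM in the KO-labelled library, a log2 ratio of -0.21 (-0.34 to -0.08). The 3 deacetylases together held 264 and 266 CPM, a log2 ratio of 0.01 (-0.07 to 0.09). All 9 genes had the 50 UMIs over both libraries that were asked of a gene before its ratio was counted, as did 9307 genes in all. None of the 9 was higher by 1.5-fold or more in the KO-labelled library, against 6.79% of all genes, and 3 of the 9 were lower by that much, against 11.8% of all genes. A group of 9 is too small for this share to be read as a property of the group.

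**Figure D1:**
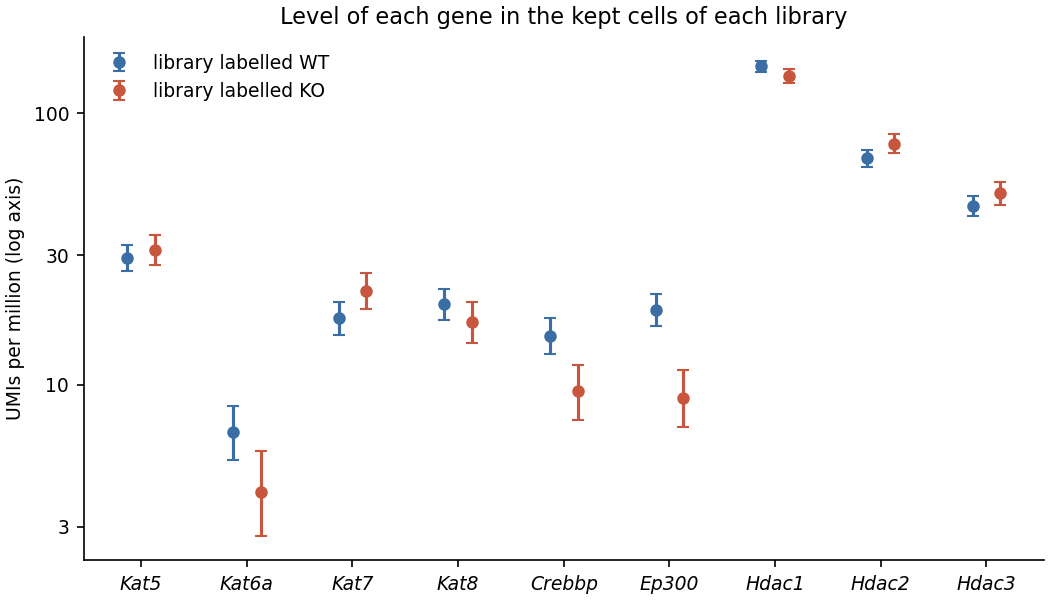
Level of each gene in CPM (UMIs per 1000000, log axis) in the kept cells of the WT-labelled library (blue) and the KO-labelled library (red), with bars for the 95% Poisson interval of the count. *Ep300*, *Crebbp* and *Kat6a* are the genes with the widest gaps between the libraries, and *Hdac1* has the highest level in both.

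Of the 9 genes, *Kat5*, *Kat6a*, *Kat7* and *Kat8* belong to the MYST family, which is named after its founding members. *Kat5* encodes TIP60, the catalytic subunit of the NuA4 complex that acts in transcription and DNA repair. It was counted at 29.4 CPM (26.4 to 32.7) in the WT-labelled library and 31.4 CPM (27.7 to 35.6) in the KO-labelled library, and these intervals overlap, with a log2 ratio of 0.10 (-0.14 to 0.34). *Kat7* encodes HBO1, an acetyltransferase of histones H3 and H4 that also takes part in licensing replication origins. Its level was 17.7 CPM (15.3 to 20.2) and 22.2 CPM (19.1 to 25.8), with a log2 ratio of 0.33 (0.03 to 0.63), the highest among the 9. That ratio was 0.04 in cells with 1000 or more genes, below *Hdac2* (0.28) and *Hdac3* (0.21), and 0.57 in cells matched on total UMIs. *Kat8* encodes MOF, which acetylates histone H4 within the MSL and NSL complexes. It stood at 19.8 CPM (17.3 to 22.5) and 17.0 CPM (14.3 to 20.2), with a log2 ratio of -0.22 (-0.53 to 0.10) whose interval includes 0. The last exon of *Kat5* overlaps *Rnaseh2c* and that of *Kat8* overlaps *Prss8*, both on the opposite strand, and it is not known here whether the counting used the strand.

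*Kat6a* encodes MOZ, which is needed to maintain hematopoietic stem cells and is itself a fusion partner in human myeloid leukemia. It was the least abundant of the 9, with 78 UMIs or 6.68 CPM (5.28 to 8.34) in the WT-labelled library and 32 UMIs or 4.04 CPM (2.76 to 5.70) in the KO-labelled library. The log2 ratio was -0.73 (-1.37 to -0.12). Few cells carried it, since 1.78% (1.39 to 2.25%) and 0.705% (0.457 to 1.04%) of kept cells had a UMI, and the 10 cells richest in it held 24.4% of its UMIs in the WT-labelled library and 53.1% in the KO-labelled library. Leaving these cells out therefore takes unequal shares, and the log2 ratio was then -1.41. The ratio of *Kat6a* lay below that of *Kat7* by 1.06 on the log2 scale (a difference of -1.06, -1.77 to -0.37). The 4 MYST genes among the 9 summed to 73.5 and 74.7 CPM, a log2 ratio of 0.02 (-0.13 to 0.18), because *Kat5* and *Kat7* are more abundant than *Kat6a*.

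*Crebbp* and *Ep300* encode CBP and p300, a pair of closely related coactivators that acetylate histone H3 at enhancers and bind many transcription factors. *Ep300* had 221 UMIs or 18.9 CPM (16.5 to 21.6) in the WT-labelled library and 71 UMIs or 8.96 CPM (7.0 to 11.3) in the KO-labelled library. The intervals do not overlap, and the log2 ratio of -1.08 (-1.49 to -0.69), a level 2.11-fold lower in the KO-labelled library, was the largest in size among the 9. *Crebbp* had 177 UMIs or 15.2 CPM (13.02 to 17.6) and 75 UMIs or 9.47 CPM (7.45 to 11.9), again with intervals apart, a log2 ratio of -0.68 (-1.09 to -0.28) and a level 1.60-fold lower. Together they held 34.1 and 18.4 CPM, a log2 ratio of -0.89 (-1.17 to -0.61). The ratios of the pair differed by 0.40 on the log2 scale (-0.18 to 0.97), which includes 0, and so does not separate them. In cells with 1000 or more genes the *Crebbp* log2 ratio was -0.19, no longer past 1.5-fold, whereas that of *Ep300* was -1.17.

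*Hdac1*, *Hdac2* and *Hdac3* are class I deacetylases, and they are not the whole of that class. The products of *Hdac1* and *Hdac2* share the SIN3, NuRD and CoREST complexes, while that of *Hdac3* works in the NCoR and SMRT complexes. *Hdac1* was the most abundant of the 9 genes at 150 CPM (143 to 157) in the WT-labelled library and 138 CPM (130 to 146) in the KO-labelled library, and its log2 ratio was -0.12 (-0.23 to -0.01). *Hdac2* followed at 68.4 CPM (63.7 to 73.3) and 77.4 CPM (71.4 to 83.8), with a log2 ratio of 0.18 (0.02 to 0.33). *Hdac3* stood at 45.6 CPM (41.8 to 49.6) and 50.8 CPM (45.9 to 56.0), with a log2 ratio of 0.15 (-0.04 to 0.34). The order *Hdac1*, *Hdac2*, *Hdac3*, *Kat5* held in both libraries with counting intervals apart at each step, and UMIs of this assay count 3′ ends, so no length correction was made. Below *Kat5* the neighbours overlapped: *Kat8*, *Ep300*, *Kat7* and *Crebbp* in the WT-labelled library, *Kat7* and *Kat8* as well as *Crebbp* and *Ep300* in the KO-labelled library.

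The ratios of *Hdac1* and *Hdac2* differed by -0.30 on the log2 scale (-0.49 to -0.11), and neither moved by 1.5-fold. This interval leaves out the spread between cells and between libraries. In the KO-labelled library 1 cell held 15 of the 613 *Hdac2* UMIs. The *Hdac1* log2 ratio was 0.0008 in cells with 1000 or more genes and -0.004 in cells of both libraries matched on total UMIs, but -0.16 in cells thinned to 1000 UMIs and -0.13 without the 5% of cells with most UMIs. *Hdac1* also has a processed pseudogene, *Gm10093* on chromosome 17 (78491582 to 78493025, GRCm38), to which 250 and 106 UMIs were assigned. Adding them gave a log2 ratio of -0.18 (-0.28 to -0.07), and the division of reads between the 2 loci is uncertain.

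**Figure D2:**
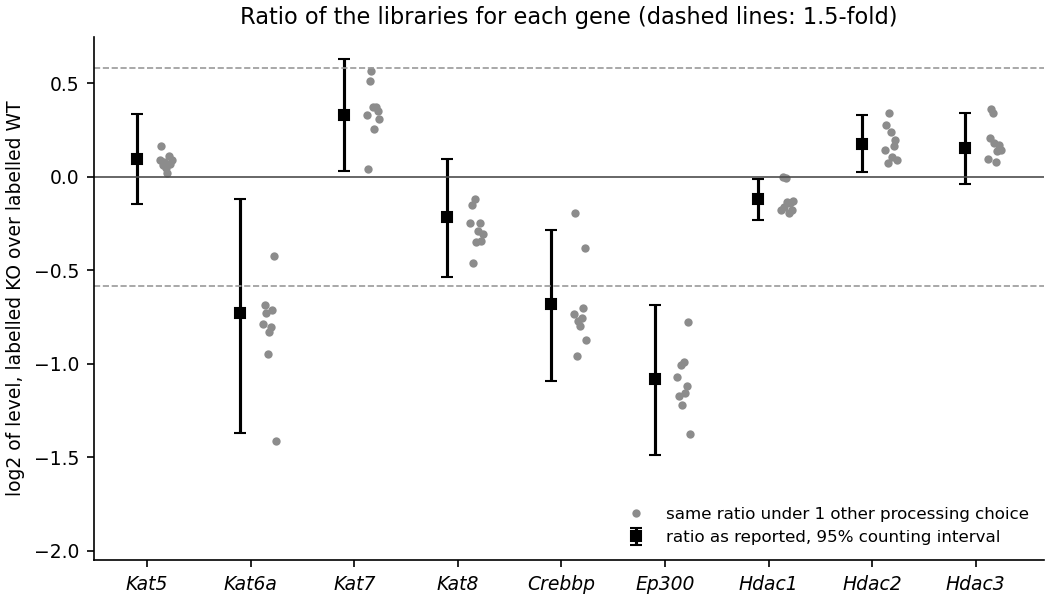
Black squares give the log2 ratio of the KO-labelled library over the WT-labelled library for each gene, with bars for the 95% counting interval. Grey points give the ratio under each of 9 other processing choices. *Ep300* lies past the lower dashed line, which marks 1.5-fold, under every choice, *Kat6a* and *Crebbp* each have at least 1 point above it, and the *Hdac1* points reach 0.

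The 3 genes lower by 1.5-fold or more in the KO-labelled library have in common that their transcripts are long. The longest annotated transcripts of *Kat6a*, *Crebbp* and *Ep300* measure 9113, 10820 and 9566 bases, all in the top decile of the genes tested (6371 bases or more), and the other 6 lie between 1579 and 3585 bases. Among all genes of the top decile the median log2 ratio was -0.30 and 31.0% were lower by 1.5-fold or more in the KO-labelled library, against a median of 0.12 and 5.60% in the second decile. Across 9292 genes the ratio and the length had a Spearman rho of -0.23, a description only, since genes share the libraries and their depth. Taken relative to the median of its own length decile, *Ep300* remained lower by 0.78 on the log2 scale, a value that 11.5% of the genes in the decile reached or fell below. *Kat6a* was lower by 0.42 and *Crebbp* by 0.38, so that 1 of the 9 genes instead of 3 lay past 1.5-fold. The share of all genes past 1.5-fold on this relative scale is not given here, so the count is a description only. The part of transcript length in the ratios was not tested further.

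**Figure D3:**
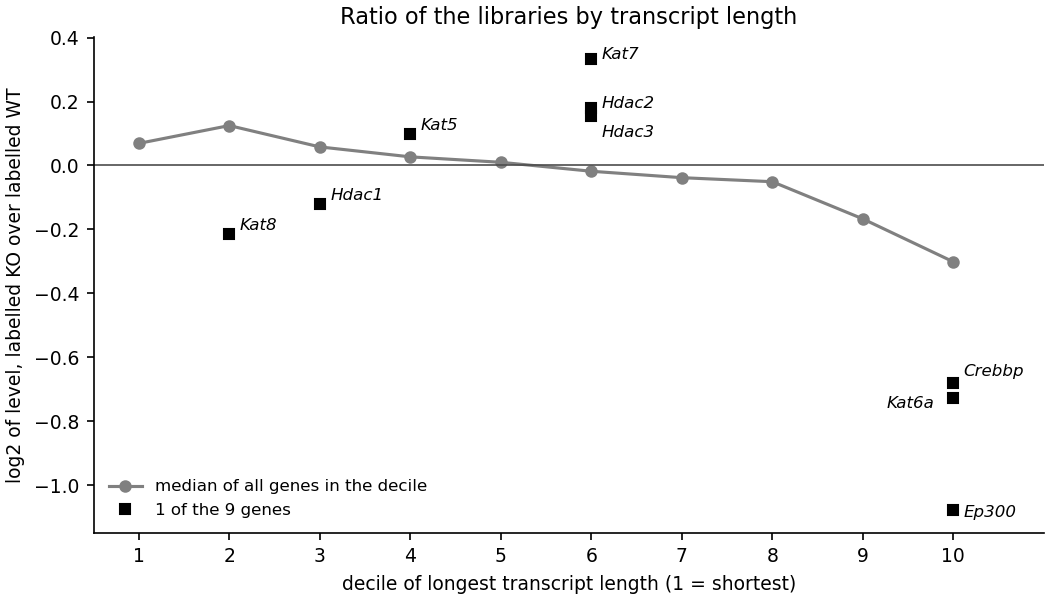
Grey points joined by a line give the median log2 ratio (library labelled KO over library labelled WT) of all tested genes in each decile of longest transcript length, from the shortest (1) to the longest (10). Black squares are the 9 genes. The median drops to -0.30 in decile 10, where *Kat6a*, *Crebbp* and *Ep300* sit below it.

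Positions of the genes on which these results turn were taken from GENCODE M21 (GRCm38), matched on Ensembl identifiers, and may differ from those used for counting. *Ep300* (ENSMUSG00000055024) lies at chr15:81585351-81652077 on the plus strand and *Crebbp* (ENSMUSG00000022521) at chr16:4081328-4213997 on the minus strand. *Kat6a* (ENSMUSG00000031540) lies at chr8:22859535-22943259 on the plus strand. *Hdac1* (ENSMUSG00000028800) lies at chr4:129516104-129542713 on the minus strand and *Hdac2* (ENSMUSG00000019777) at chr10:36974544-37001889 on the plus strand.

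The RefSeq promoter windows for GRCm38.p6 held 6 of the 9 genes, with no window for *Kat6a*, *Hdac1* and *Hdac3*. The 250 bases before the start held 44 CG dinucleotides in *Crebbp*, 27 in *Hdac2* and 25 in *Ep300*, counts that 0.539%, 8.56% and 10.7% of all 32851 windows reached, and the median window held 6. *Kat5* had 15 and 24 in its 2 windows, *Kat7* had 8, and *Kat8* had 10 and 5. For *Ep300* and *Crebbp* the window lies inside an exon of the longer GENCODE transcripts, which start further upstream. No window of these 6 genes held the letters TATAAA, which 12.4% of all windows held on either strand, TTTNGCGC (1.13%), ACTTCCG (4.92%) or the NRF1 motif (0.782%), and CCAAT (33.8%) was found for *Kat5*, *Kat7* and *Kat8*, as was CACGTG (6.02%) for *Kat5*. The GC box GGGCGG (32.7%) was found for *Kat5*, *Kat8*, *Crebbp*, *Ep300* and *Hdac2*, and not for *Kat7*. The window of *Hdac2*, the one gene of the 9 counted as higher in S phase cells of both libraries, is shown because it ends at the annotated start and overlaps no exon. It spans chr10:36974294-36974543 on the plus strand, and the capitals mark its only match among the motifs searched, the GC box GGGCGG read on the other strand, which 32.7% of windows hold and which does not overlap another match.
Hdac2: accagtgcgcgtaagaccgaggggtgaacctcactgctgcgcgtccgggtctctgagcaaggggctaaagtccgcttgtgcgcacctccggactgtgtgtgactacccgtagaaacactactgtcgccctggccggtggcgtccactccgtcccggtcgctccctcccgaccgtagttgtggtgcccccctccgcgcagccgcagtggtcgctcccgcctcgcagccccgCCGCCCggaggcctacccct

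Each kept cell was given the state whose marker list stood highest among the cells of both libraries, where it reached the 75th percentile, and the remaining cells were called no leading list. The states were mitotic, S phase, primary granule (*Mpo*, *Elane* and other granule genes of immature myeloid cells), late granule (*Camp*, *Ltf* and other genes of maturing neutrophils), monocyte, macrophage, and stem and progenitor. They are ranges of a score and not types, since 752 of 7411 cells lay within 5 percentiles of the limit and 1792 had a second list within 5 percentiles of the first. Cells per state ranged from 246 to 770 in the WT-labelled library and from 258 to 589 in the KO-labelled library, and S phase took 10.8% and 16.6% of kept cells. A gene was counted in a state where its level was 1.5-fold or more that of the other cells of the same library, the same way in both libraries.

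*Hdac2* was highest in S phase cells of both libraries. It stood at 105 CPM (90.4 to 122) in S phase cells of the WT-labelled library and at 62.2 CPM in the other cells, a log2 ratio of 0.76, and at 111 CPM (95.4 to 128) against 68.4 CPM in the KO-labelled library, a log2 ratio of 0.70. *Hdac2* was the only one of the 9 genes counted as higher in S phase, where 8.55% of all genes were, and *Ep300* was the only one counted as lower, where 9.59% were. *Ep300* had 11.3 CPM against 20.2 CPM and 4.14 CPM against 10.3 CPM, on 19 and 7 UMIs, and its count was lost with overlapping groups (log2 -0.37 and -0.93). When cells were thinned to 1000 UMIs before states were set, the *Hdac2* log2 ratios were 0.72 and 0.44, the second no longer past 1.5-fold.

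*Hdac1* varied in the same sense by less than 1.5-fold. Its S phase level was 198 CPM against 141 CPM in the WT-labelled library and 158 CPM against 132 CPM in the KO-labelled library, and in mitotic cells it was 174 CPM against 145 CPM and 165 CPM against 131 CPM. *Hdac3* had 54.7 CPM and 62.2 CPM in S phase cells against 44.0 and 47.7 CPM. In mitotic cells *Hdac2* was not raised, with 60.3 CPM against 69.8 CPM and 69.0 CPM against 79.3 CPM. None of the 9 genes was counted in mitotic cells, where 5.25% of all genes were higher and 11.8% lower.

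**Figure D4:**
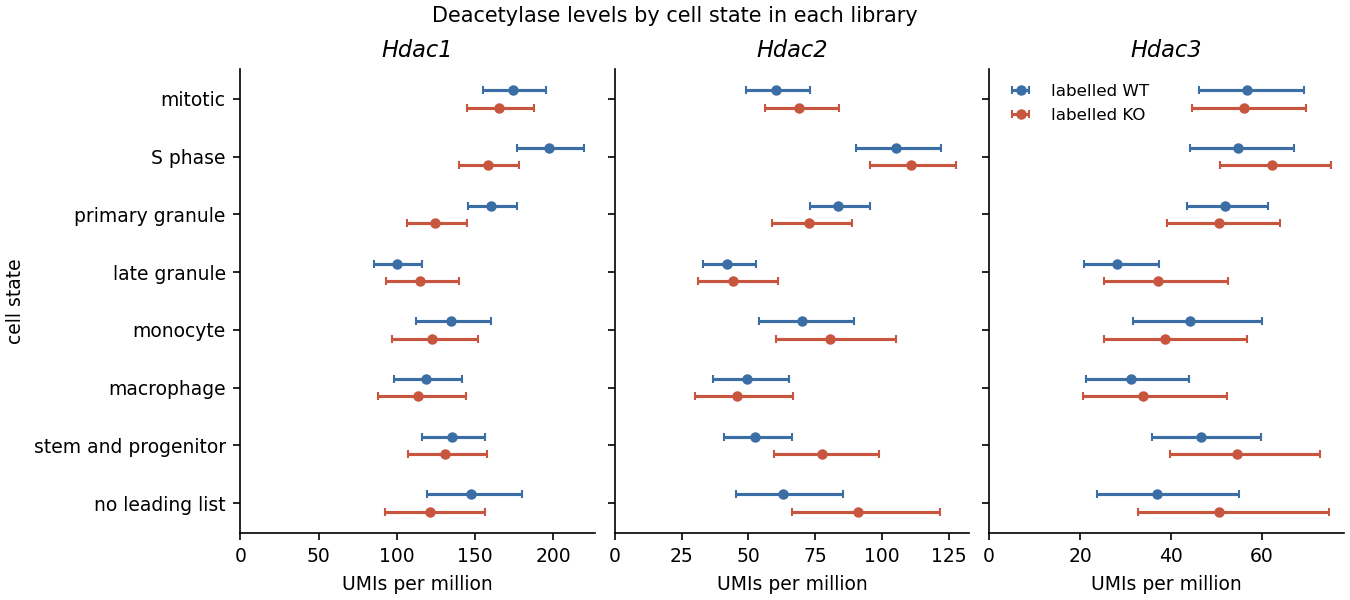
Level of *Hdac1*, *Hdac2* and *Hdac3* (CPM, each horizontal axis from 0 with its own scale) in the 8 groups of cells, for the WT-labelled library (blue) and the KO-labelled library (red), with 95% Poisson intervals of the counts. *Hdac2* reaches 105 and 111 CPM in S phase cells and is lowest in late granule cells, at 42.0 and 44.2 CPM.

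Late granule cells had the lowest *Hdac2* level, 42.0 CPM (32.9 to 52.8) against 73.0 CPM in the other cells of the WT-labelled library and 44.2 CPM (31.1 to 60.9) against 81.3 CPM in the KO-labelled library. The log2 ratios were -0.80 and -0.88. *Hdac2*, *Kat8* (-1.33 and -0.73) and *Kat6a* (-0.61 and -0.83, on 8 and 2 UMIs) were counted as lower there, and none of the 9 as higher. This share is that of genes in general, because 35.7% of all genes were lower in late granule cells and 3.49% higher, and the median log2 ratio of all tested genes was -0.59 and -0.51. When levels were taken per UMI outside the marker genes, a choice added after the values were seen, the *Hdac2* log2 ratios were -0.41 and -0.51 and none of the 3 was counted. A low *Hdac2* level was not particular to late granule cells. In macrophage cells it was 49.6 CPM (36.9 to 65.2) and 45.7 CPM (30.1 to 66.6), with log2 ratios of -0.50 and -0.81. The first is short of 1.5-fold. *Hdac2* was counted as lower in macrophage cells with a limit at the 90th percentile and with totals without the marker genes. The shares of all genes under these choices are not given here.

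In primary granule cells *Crebbp* was counted as lower, with log2 ratios of -0.74 and -0.59 on 26 and 9 UMIs, where 8.38% of all genes were lower, and none of the 9 as higher, where 2.86% were. The *Crebbp* count held with totals without the marker genes and was lost under the other 4 choices tried, with log2 ratios of -0.44 and 0.29 in cells with 1000 or more genes. In macrophage cells *Ep300* was counted as higher, at 27.2 CPM against 18.1 CPM and 15.2 CPM against 8.46 CPM on 28 and 9 UMIs, where 9.62% of all genes were higher. *Hdac3* was counted as lower there, at 31.1 CPM against 47.0 CPM and 33.9 CPM against 52.1 CPM, where 10.4% were. The *Hdac3* count was lost with a limit at the 90th percentile (log2 -0.58 and -0.04), with overlapping groups (-0.44 and -0.21) and in cells with 1000 or more genes (-0.41 and -0.52). The *Ep300* count was lost under all 5 choices tried, with log2 ratios of -0.64 and 1.70 in cells thinned to 1000 UMIs. None of the 9 was counted in monocyte cells, where 11.8% of all genes were higher and 10.0% lower, in stem and progenitor cells (4.84% and 4.68%), or in cells with no leading list (3.64% and 9.06%).

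The ratio of the libraries was also taken within each state. *Ep300* was lower in the KO-labelled library in 8 of 8 groups of cells, from -2.29 on the log2 scale in monocyte cells (27 and 4 UMIs) to -0.05 in stem and progenitor cells (25 and 15 UMIs). *Crebbp* was lower in 7 of 8, with stem and progenitor cells at 0.17 as the exception, and *Kat6a* in 7 of 8, with macrophage cells at 1.02 as the exception (6 and 7 UMIs). In cells with no leading list *Kat6a* had 5 UMIs in the WT-labelled library and 0 in the KO-labelled library. *Hdac1* was lower in 7 of 8 and *Hdac2* higher in 6 of 8. The 8 groups divide the cells of the same libraries and are not repeats. The share of all genes with such counts is not given here. The mean of the log2 ratios within states, each state with UMIs in both libraries weighted alike, was -1.12 for *Ep300*, -0.70 for *Crebbp* and -0.71 for *Kat6a*. Many of these ratios rest on fewer than 10 UMIs in a library, and the part of cell state in the ratios was not tested.

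The genes whose levels followed each gene most closely over 16 points, 8 groups of cells in 2 libraries, were named for the 4 genes with 500 or more UMIs, out of 4054 genes compared by Pearson correlation of log2(CPM + 5). The points share 2 libraries and their depth, and the values are descriptions. Those nearest to *Hdac1* were *Ran* (0.91), *Tra2b* (0.90) and *U2af2* (0.89), the last 2 encoding splicing factors. Nearest to *Hdac2* were *Ndufab1* (0.94), *Psat1* (0.91) and *Mrps10* (0.91), which encode a mitochondrial acyl carrier protein, an enzyme of serine synthesis and a mitochondrial ribosomal protein. *Hdac3* was followed by *Hmgn5* (0.95), *Banf1* (0.93) and *Uchl5* (0.93), and *Kat5* less closely by *Cyth2* (0.78), *Fbxo3* (0.74) and *Gapt* (0.70). Among the 9 genes *Hdac2* and *Hdac3* had a correlation of 0.76, *Hdac1* and *Hdac3* of 0.75 and *Hdac1* and *Hdac2* of 0.62, whereas *Kat5* was below 0.26 with each deacetylase. No median over all pairs of genes is given here. In late granule cells, which are among the 16 points, the median log2 ratio of all tested genes was -0.59 and -0.51. The part of this in the correlations was not tested.

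The levels were then set beside detection of *Kat2a* in the same cell. A *Kat2a* UMI was seen in 124 kept cells of the WT-labelled library and in 469 of the KO-labelled library, and these cells were deeper than the rest, with medians of 4473.5 against 2545.5 UMIs and 2762 against 1807 UMIs. *Hdac2* was higher in cells with a *Kat2a* UMI in both libraries, at 120 CPM against 65.6 CPM (log2 0.87, 0.50 to 1.22) and 97.5 CPM against 72.7 CPM (log2 0.42, 0.15 to 0.69). *Hdac1* was higher by 0.30 (0.004 to 0.58) and 0.31 (0.10 to 0.52) on the log2 scale. *Ep300* had 5.00 CPM against 19.7 CPM in the WT-labelled library, on 3 UMIs in the cells with *Kat2a* (log2 -1.98, -4.27 to -0.41), and 5.30 CPM against 9.83 CPM in the KO-labelled library, where the interval of the log2 ratio (-2.16 to 0.18) includes 0. In S phase cells *Kat2a* had 22.0 CPM against 10.5 CPM in the other cells of the WT-labelled library. In the KO-labelled library it had 105 CPM against 93.4 CPM. The part of depth and of cell state in the differences by *Kat2a* detection was not tested. No median over all genes is given for this split.

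Cell-to-cell variability was the outcome the study set out to measure, and most of these genes are too sparse to carry it. Counting those seen in 10% or more of kept cells, 2737 genes remained, which included *Hdac1*, *Hdac2* and *Hdac3* (27.0%, 14.6% and 10.7% of cells), while the 6 acetyltransferases were below that share. *Hdac1* had a UMI in 30.8% (29.4 to 32.3%) of cells of the WT-labelled library and 22.9% (21.5 to 24.3%) of the KO-labelled library, and in 12.03% and 10.98% of cells once each was thinned to 1000 UMIs, which left out 66 and 194 shallower cells. No cell group here is known to lack these transcripts, so no background share from free RNA can be given. The CV (the coefficient of variation, on counts scaled to 10000 per cell) of *Hdac1* was 1.85 and 2.21, a log2 ratio of 0.25, and after thinning 2.88 and 2.99, a log2 ratio of 0.05. Over the 2737 genes the medians of this log2 ratio were 0.21 and 0.02, close to the values of *Hdac1*.

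*Hdac2* had a CV of 2.74 in the WT-labelled library and 3.80 in the KO-labelled library, a log2 ratio of 0.47 that remained at 0.28 after thinning. Its variance over mean after thinning was 1.06 and 1.64, against medians of 1.16 and 1.26 over the 2737 genes, and 1 cell of the KO-labelled library held 15 of its 613 UMIs where the richest cell of the WT-labelled library held 5. *Hdac3* had a CV of 3.17 and 3.73, and the log2 ratio went from 0.23 to -0.16 with thinning. Over all 9 genes, the sparse acetyltransferases included, the median log2 ratio of the CV was 0.33. It was 0.26 after thinning and 0.030 in 2772 cells per library matched on total UMIs. This set is unlike the 2737 genes, so its median is not to be read against theirs. The largest CV ratios were those of *Kat6a* (0.79), *Ep300* (0.72) and *Crebbp* (0.60), the genes lower by 1.5-fold or more in the KO-labelled library. The part of level in these ratios was not tested.

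The wider machinery of acetylation was counted from lists of genes named by function. Among 13 other acetyltransferases 2 were higher by 1.5-fold or more in the KO-labelled library and 5 were lower, beside 6.79% and 11.8% of all genes. The median log2 ratio of these 13 was -0.29, and relative to genes of like transcript length the median was -0.04. The median over all 9307 genes was -0.01. *Taf1*, the largest TFIID subunit, had 9.94 CPM in the WT-labelled library and 4.80 CPM in the KO-labelled library (log2 -1.05), *Kat6b*, the paralogue of *Kat6a*, had 4.11 and 1.77 CPM (-1.22) and the coactivator *Ncoa2* had 6.77 and 3.41 CPM (-0.99). *Gtf3c4*, a TFIIIC subunit, stood at 2.57 and 5.30 CPM (1.04). *Kat2b*, the paralogue of *Kat2a*, had 52 and 22 UMIs, 4.46 and 2.78 CPM, with a log2 ratio of -0.68 (-1.47 to 0.06) whose interval includes 0.

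Of 15 other deacetylases 13 could be counted, 0 higher and 2 lower, with a median log2 ratio of 0.12. The shares of all genes, 6.79% higher and 11.8% lower, apply to this list and to both lists of partners, whose counts lie near or below them. *Hdac4*, a class II deacetylase, had 6.34 and 3.03 CPM (log2 -1.07), the mitochondrial *Sirt3* 30.4 and 37.8 CPM (0.31) and the nucleolar *Sirt7* 119 and 101 CPM (-0.23). Among 33 partners of the acetyltransferases 2 were higher and 2 lower, with a median of 0.04. The NuA4 subunits *Dmap1* (log2 0.81) and *Epc1* (0.60) were higher, and *Hcfc1* (-1.08) and *Msl2* (-0.81), partners of *Kat8* in the NSL and MSL complexes, were lower. Among 37 partners of the deacetylases 2 were higher and 3 lower, with a median of -0.05. *Mier1* had 41.8 and 19.9 CPM (-1.07) and the CoREST scaffold *Rcor1* 8.48 and 4.80 CPM (-0.82), while *Chd3* had 2.14 and 6.82 CPM (1.67) and *Mier2* 3.43 and 5.56 CPM (0.70).

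The acetyl-lysine readers had the lowest median of the lists. Of 13 counted, 0 were higher and 6 lower by 1.5-fold or more, the median log2 ratio was -0.54, and it was -0.29 relative to genes of like transcript length. *Baz1a*, a chromatin remodeling subunit, had 229 CPM in the WT-labelled library and 151 CPM in the KO-labelled library (log2 -0.60), *Baz1b* 25.5 and 12.2 CPM (-1.06) and *Baz2a* 16.6 and 6.94 CPM (-1.26). *Brd3*, a BET bromodomain gene, had 35.1 and 20.2 CPM (-0.80), whereas its relative *Brd2* had 58.4 and 63.0 CPM (0.11). The share of lower genes in the list is to be read beside the 11.8% of all genes and, for the readers in the top length decile, the 31.0% of genes there. Not all readers lie in that decile. *Brd3* (5419 bases) and *Baz1a* (6188 bases) lie in decile 9, where 21.3% of genes were lower. *Mllt1* (3636 bases, log2 -0.75) lies in decile 7, where 11.2% were.

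**Figure D5:**
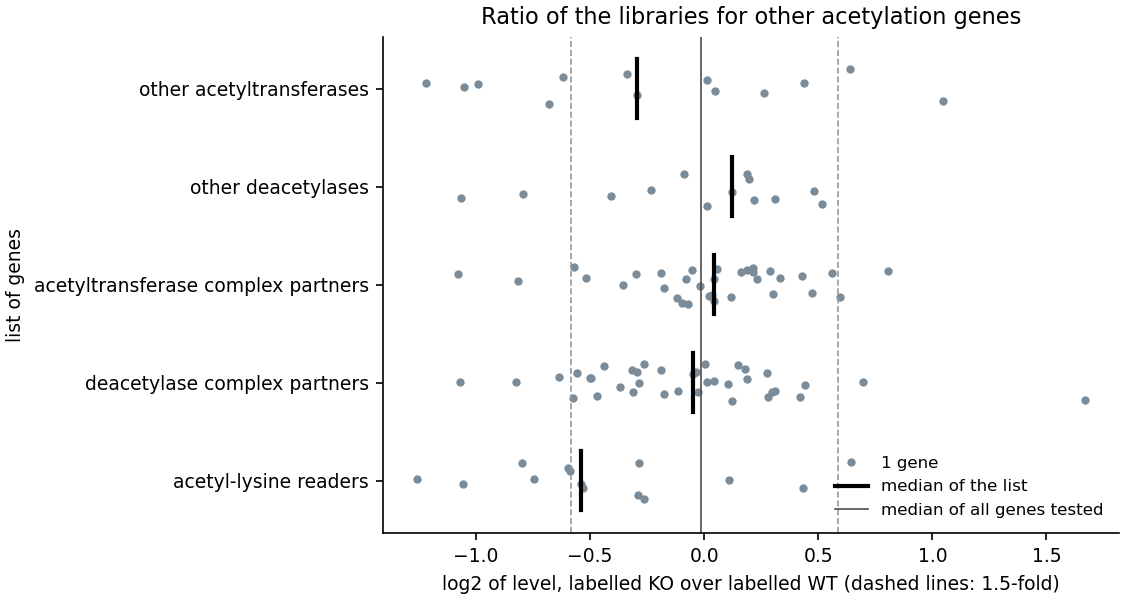
Each point is 1 gene of a list on the vertical axis, placed by its log2 ratio of the KO-labelled library over the WT-labelled library (points are spread vertically for legibility). Thick bars give the list median, the thin line the median of all tested genes and the dashed lines 1.5-fold. The acetyl-lysine readers have the lowest median, -0.54.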

How the data were processed

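The authors ran Cell Ranger (version 1.3.1 per the labels) on build mm10 and deposited 1 matrix of UMI counts per gene and cell, with no normalization, for 1 library per genotype. The methods and the labels name different Cell Ranger releases, and the annotation used for counting is not given in the sources used here. The labels do not say which barcode ending is which genotype. Endings of 1 were taken as KO and of 2 as WT, as in the study's analysis code, which fixes its bookkeeping and not the identity of the tubes.

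Counts were summed over kept cells (500 or more genes) per library and scaled to CPM. Intervals are exact Poisson (levels), exact binomial (shares) and exact conditional binomial (ratios), all at 95%, and cover counting error only. With 1 library per genotype no test was run. A call means 1.5-fold or more among genes with 50 or more UMIs. Thinning drew 1000 UMIs per cell without replacement. Doublets were not removed, and the 5% of cells with most UMIs were left out as an alternative. Named genes were the 9 genes, the up to 4 largest ratios with an interval excluding 0 in each wider list, and the 3 genes most alike; *Kat2b* and *Brd2* were named after their values were seen. The 9 genes and all lists were chosen with earlier results of these data known. The ratio and state procedures were checked on simulated data. Python 3.11.15, NumPy 2.4.6, SciPy 1.17.1, pandas 2.3.3 and GENCODE mouse M21 were used.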

Additional observations from a re-analysis of the deposited data

Results flagged for a closer look

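Cells with fewer than 500 detected genes were outside the comparisons, and the 9 genes also gave UMIs there. Their summed level was 224 CPM in 203 such cells of the library labelled WT and 186 CPM in 695 such cells of the library labelled KO, above the limits that 3 counts allow (13.4 and 4.51 CPM), against 371 and 359 CPM in kept cells. *Hdac1*, the most abundant of the 9, stood at 49.3 CPM (24.6 to 88.2) against 150 CPM and at 46.6 CPM (31.7 to 66.2) against 138 CPM. *Kat6a* was higher there in the library labelled WT, at 35.9 CPM (15.5 to 70.7) on 8 UMIs against 6.68 CPM, but in the library labelled KO it had 4 UMIs, 6.01 CPM (1.64 to 15.4), against 4.04 CPM. In the library labelled WT *Ep300* had 40.3 CPM (18.4 to 76.6) on 9 UMIs against 18.9 CPM. *Crebbp* had 31.4 CPM (12.6 to 64.6) on 7 UMIs against 15.2 CPM. Both intervals include the level of kept cells. In the library labelled KO *Ep300* had 12.0 against 8.96 CPM and *Crebbp* 7.52 against 9.47 CPM.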

How the results depend on the processing

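No paired analysis was possible because each genotype was captured once. Of 81 recomputed log2 ratios of the 9 genes, 75 stayed within the counting interval of the reported value, 6 moved outside it and 0 of those past 1.5-fold changed sign. *Ep300* ranged from -1.38 to -0.78, *Crebbp* from -0.96 to -0.19 and *Kat6a* from -1.41 to -0.42. The summed deacetylases had a log2 ratio of 0.116 in cells with 1000 or more genes and 0.157 in cells matched on total UMIs. The count of genes 1.5-fold lower was 1 relative to genes of like transcript length, a choice added after seeing the data. No share of all genes is given for that count. Pairs of a gene and a state counted as higher in both libraries were 2, and 4 with a limit at the 90th percentile, 0 after thinning and 1 with totals without the marker genes, also added after seeing the data. Of the 4 pairs, 1 was among the reported 2. Pairs counted as lower were 6, and 0 with overlapping groups of cells above the 75th percentile of each list. Of 9 lower pairs with a limit at the 90th percentile, 3 were among the reported 6. The same held for 3 of 5 after thinning and 2 of 5 in cells with 1000 or more genes. With totals without the marker genes it held for 3 of 4. The pairs therefore changed more than their number. The median log2 ratio of the CV was 0.0304 in cells matched on total UMIs and 0.0511 in cells with 1000 or more genes, and 0.264 after thinning, against the reported 0.33. Depth limits *Kat6a* and every state value of the acetyltransferases, many of which rest on fewer than 20 UMIs.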
